A study of Mus musculus with 8 samples.

Results

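ATP-binding cassette (ABC) transporters are the family described here, taken as every non-control probe whose gene name starts with Abca to Abcg followed by a digit. The rule found 50 genes on 111 probes, of 37074 gene names on 56605 probes of the array design. Each gene is given by 1 probe, the one with the highest mean level over all arrays, and 35 of the 50 genes had more than 1 probe. For 3 weeks male mice were given distilled water (control), 100 mg/L of lead acetate in it (the low dose) or 1000 mg/L (the high dose). Total RNA of tissue pieces was read on 1-colour Agilent arrays, 8 in all and 1 per group: all 3 exposures for brain and for kidney, and control and high dose only for liver. The labels do not say how many animals stand behind an array, or whether the tissues came from the same animals.

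ABC proteins bind and hydrolyse ATP, and most of them use that energy to move a substrate across a membrane. Subfamilies A and G mainly carry sterols, phospholipids and other lipids, subfamilies B and C hold the multidrug transporters, the bile salt and bilirubin conjugate pumps of the liver and several organelle transporters, subfamily D serves peroxisomes and lysosomes, and subfamilies E and F act in translation without crossing a membrane. In kidney tubules, hepatocytes and the endothelium of brain capillaries these pumps help to decide which drugs, toxicants and conjugates are passed into urine, bile or blood.

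All levels below are log2 signals relative to the 75th percentile of their own array, and all differences are log2 differences of the same probe between arrays. On each array 53.4% to 67.1% of the spots passed the scanner's limit for being well above background, and all arrays lay on 1 slide. By the reported probe, 33 of the 50 members were well above background on all 8 arrays and 6 (Abca12, Abca14, Abca15, Abca16, Abcb5 and Abcg3) on none, and 0 were saturated on any array. For 5 of these 6 no other probe was either, while the other probe of Abcg3 was above background on the control brain array. The labelled tissues carried their defining markers: 12 of 12 hepatocyte markers were well above background on both liver arrays, 10 of 10 proximal tubule markers on all kidney arrays and 8 of 8 neuron markers on all brain arrays. Other markers separated arrays of the same tissue. Of the spermatid markers measured, 5 of 5 were higher on the high-dose than on the control kidney array and 3 of 3 on the high-dose brain array, and 8 of 10 choroid plexus markers were lower on the high-dose brain array. In bulk tissue, fewer cells of a type and less RNA per cell cannot be told apart.

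Within a tissue each dose rests on 1 array, so dose differences were not checked by replicates and carry no p-value. A member was counted as higher or lower when its difference was at least 1 in size (a fold of 2), was more than 3 times the error that the scanner software assigns to the spots, and came from a probe well above background and unsaturated on both arrays. This is called the size rule below. It is a rule of size for these arrays and does not cover variation between mice.

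In kidney at the high dose, 5 of 37 measured members were past the size rule and all 5 were higher than control, against 1.66% of all genes measured (1.12% higher and 0.542% lower). They were Abcb1a and Abcb1b, the 2 mouse P-glycoproteins that pump drugs and other hydrophobic compounds out of cells, Abcb4, the phosphatidylcholine floppase of the bile canaliculus, and Abcc3 and Abcc4, multidrug resistance-associated proteins that export organic anion conjugates (Abcc4 also cyclic nucleotides). By role, 3 of 3 measured full transporters of subfamily B and 2 of 7 measured multidrug resistance-associated proteins were past the rule while no member of another group was. The median over all 37 members was 0.02, against -0.03 over 21232 genes, and 29 of the 37 lay within 0.5 of control.

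Abcb1b read -1.83 on the control, -1.73 on the low-dose and -0.13 on the high-dose kidney array. Its high-dose difference was 1.70 (array error 0.21), a fold of 3.25, and 96 of 21232 genes differed by more. The control and low-dose arrays lay close together and the high-dose array stood above both. Abcb1a, the other P-glycoprotein, had levels of -2.40, -2.14 and -1.31, a high-dose difference of 1.10 (array error 0.21) and a fold of 2.14. It was the called member nearest the rule's limit: its difference was 0.81 with another background correction and 0.83 when the low-dose array replaced the control, both short of the rule.

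Abcb4 had levels of -1.67, -1.52 and -0.28 on the control, low-dose and high-dose kidney arrays, a difference of 1.39 (array error 0.21) and a fold of 2.62. Abcc3 went through -2.47, -2.11 and -0.94, a difference of 1.53 (array error 0.21) and a fold of 2.90. Abcc4 was at -0.05, 0.17 and 1.45, a difference of 1.50 (array error 0.20) and a fold of 2.83. In these 3 genes, as in both P-glycoproteins, the order was control, low dose, high dose, and most of the distance lay between the low-dose and the high-dose array.

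**Figure D1:**
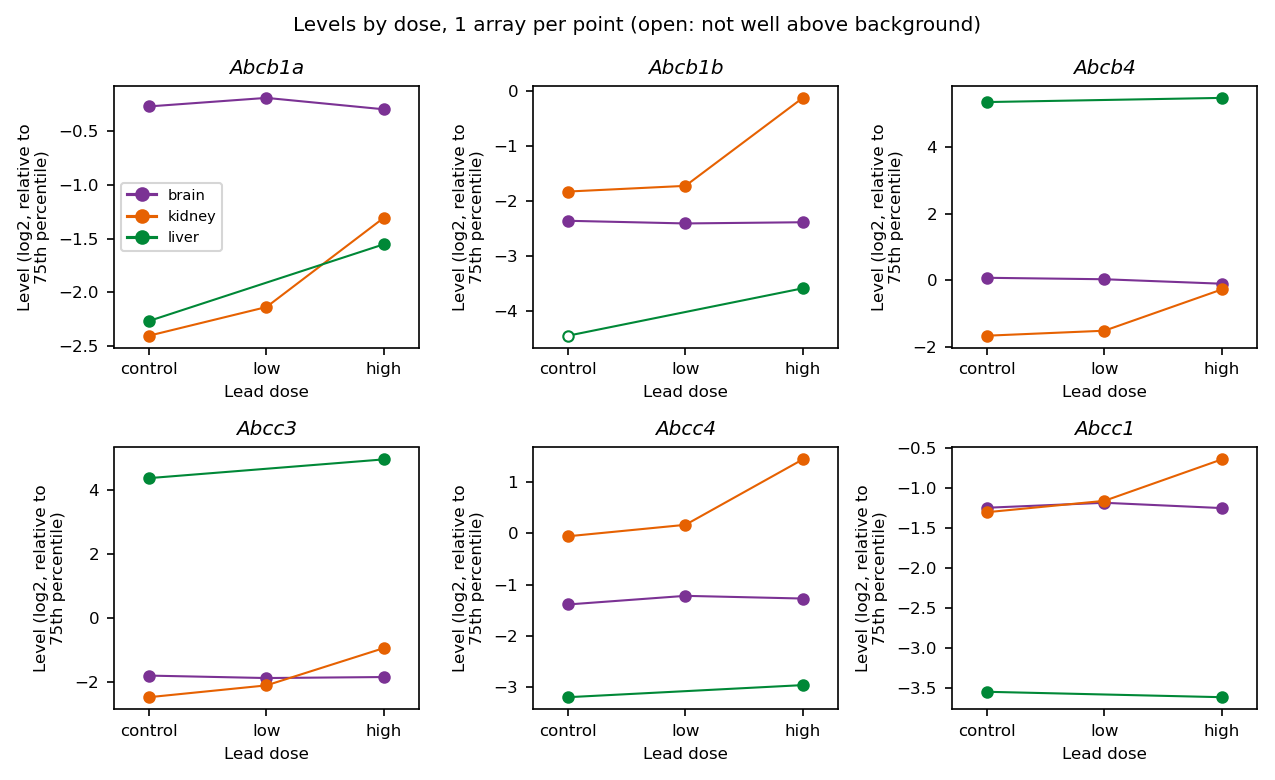
Level (log2, relative to the 75th percentile of the array; y axis) by lead dose (x axis) for the 5 members past the size rule in kidney and for Abcc1, with 1 point per array, lines joining the arrays of a tissue and an open point where the probe was not well above background. The orange kidney lines climb mainly between low and high dose (Abcb1b from -1.73 to -0.13), while the purple brain lines stay nearly flat.

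Next in size in kidney at the high dose, but well short of the rule, was Abcc1, an exporter of glutathione conjugates, with a difference of 0.66. Abcc9, the sulfonylurea receptor of ATP-gated potassium channels in vessels, had 0.61. Abcc1 had levels of -1.30, -1.16 and -0.65, but its other probe, well above background on all 8 arrays, went from -1.05 in control to -1.26 at the high dose (-0.21). The 2 probes of Abcc1 thus differed in sign. Abca8b (0.53), the retinal lipid flippase Abca4 (0.48) and the lysosomal cobalamin transporter Abcd4 (0.40) followed. Another probe of Abca8b was not well above background in control kidney and read -4.35 at the low and -3.26 at the high dose. It was at least 1.41-fold higher at the low and at least 3.00-fold higher at the high dose. The reported probe differed from control by -0.22 at the low dose and by 0.53 at the high dose. These 2 probes thus differed in direction at the low dose only. Among the lowest were the phospholipid transporter Abca7 (-0.25), the apical drug pump Abcg2 (-0.25) and the surfactant lipid transporter Abca3 (-0.25). Abcc2, the apical pump for bilirubin glucuronides, was at 1.15, 1.08 and 1.43, a high-dose difference of 0.29.

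Several members were well above background on only 1 of the kidney arrays compared, which gives a bound of the fold. Abcc8, the sulfonylurea receptor of the beta cell and neuron channel, was at least 1.64-fold higher at the high dose, and Abca17 at least 1.68-fold lower. Neither bound reached a fold of 2.

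**Figure D2:**
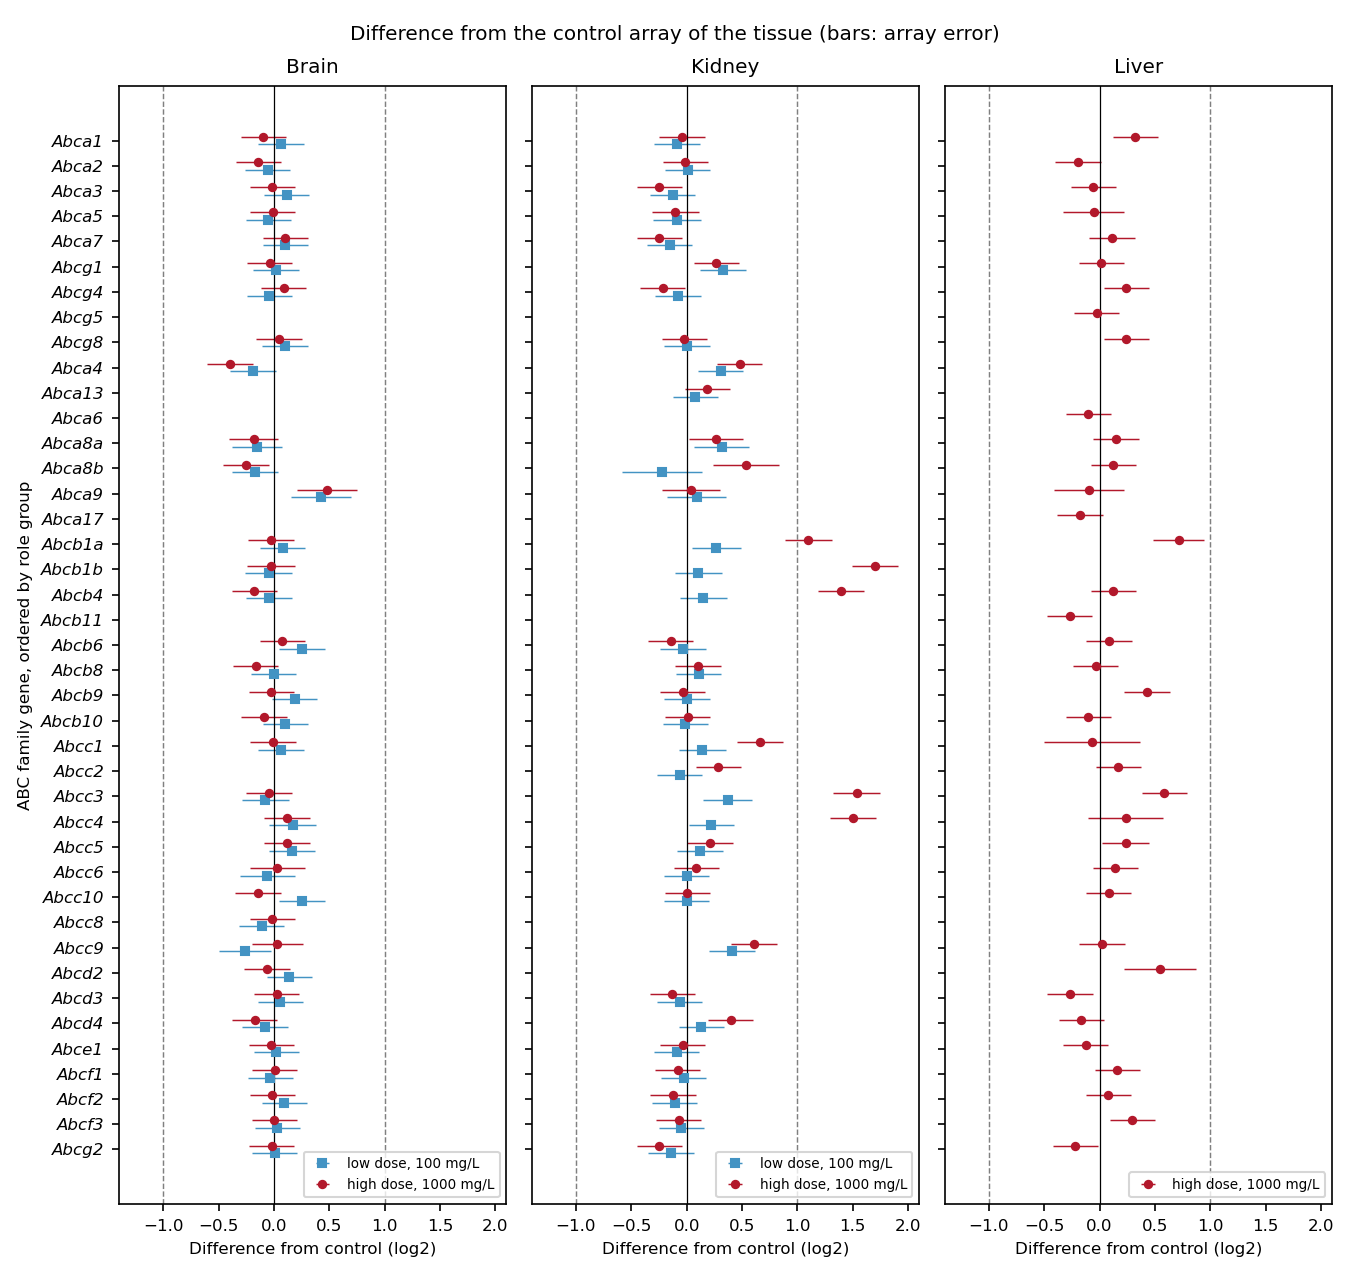
Difference from the control array of the same tissue (log2, x axis) for the measured ABC members shown (y axis, ordered by role), with bars for the array error and dashed lines at -1 and 1. In the kidney panel 5 red high-dose points lie beyond 1, from Abcb1a at 1.10 to Abcb1b at 1.70, and no other point in any panel does.

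The other probes of the 5 genes could not check the result fully. The second probes of Abcb1a and Abcb1b were well above background on 0 arrays (kidney high-dose differences of 1.27 and 1.55 between such dim values). The second probe of Abcc3 was dim on all kidney arrays too (1.36). Abcb4 had 2 further probes, both dim on every kidney array, with differences of 0.05 and 0.03, and Abcc4 had 1 probe only. The reported probes lie, in the mm9 coordinates of the array files, at chr5:8748075-8748134 (Abcb1a), chr5:8865925-8865984 (Abcb1b), chr5:8959108-8959167 (Abcb4), chr11:94204612-94204671 (Abcc3) and chr14:118882104-118882163 (Abcc4), the last 2 on the minus strand. The part of the transcript that each covers was not analysed here. The longest run of bases shared between reported probes was 7 of 60 for Abcb1a and Abcb1b and for Abcb1b and Abcb4, and 5 for Abcb1a and Abcb4. Probes were compared with each other and not with the transcripts of the related genes. Whether a probe also binds a related transcript was therefore not tested.

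Abcb1a, Abcb1b and Abcb4 are consecutive protein-coding genes on chromosome 5 in the RefSeq annotation of GRCm38.p6. Since these neighbours were higher together, their promoters are shown with that of Abcc4, each 300 bases long from 250 before to 50 after a gene start, from RefSeq (GRCm38.p6). Capitals mark matches, on either strand, to TGACNNNGC (the core of antioxidant response elements), GCGTG (the core of dioxin response elements), GGGCGG (GC box) and CCAAT. The 4 windows are chr5:8566841-8567140 (Abcb1a, plus strand), chr5:8797897-8798196 (Abcb1b, plus strand), chr5:8893471-8893770 (Abcb4, plus strand) and chr14:118706170-118706469 (Abcc4, minus strand).
Abcb1a: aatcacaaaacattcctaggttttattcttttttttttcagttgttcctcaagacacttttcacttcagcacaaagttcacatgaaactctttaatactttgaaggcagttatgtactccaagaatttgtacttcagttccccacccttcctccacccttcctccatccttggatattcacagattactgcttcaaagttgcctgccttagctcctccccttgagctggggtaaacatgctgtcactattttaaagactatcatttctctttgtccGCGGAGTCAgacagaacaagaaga
Abcb1b: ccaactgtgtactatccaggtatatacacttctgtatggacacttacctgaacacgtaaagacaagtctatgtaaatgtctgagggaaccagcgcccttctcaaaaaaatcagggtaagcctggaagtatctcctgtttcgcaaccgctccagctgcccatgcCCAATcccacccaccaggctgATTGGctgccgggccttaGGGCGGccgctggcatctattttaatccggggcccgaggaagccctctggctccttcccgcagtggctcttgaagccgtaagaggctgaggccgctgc
Abcb4: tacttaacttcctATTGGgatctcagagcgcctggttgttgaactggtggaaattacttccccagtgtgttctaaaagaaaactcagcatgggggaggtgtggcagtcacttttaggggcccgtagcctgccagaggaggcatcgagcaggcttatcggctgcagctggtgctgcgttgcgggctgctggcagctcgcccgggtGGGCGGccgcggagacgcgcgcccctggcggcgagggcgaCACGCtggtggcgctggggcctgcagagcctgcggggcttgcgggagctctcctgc
Abcc4: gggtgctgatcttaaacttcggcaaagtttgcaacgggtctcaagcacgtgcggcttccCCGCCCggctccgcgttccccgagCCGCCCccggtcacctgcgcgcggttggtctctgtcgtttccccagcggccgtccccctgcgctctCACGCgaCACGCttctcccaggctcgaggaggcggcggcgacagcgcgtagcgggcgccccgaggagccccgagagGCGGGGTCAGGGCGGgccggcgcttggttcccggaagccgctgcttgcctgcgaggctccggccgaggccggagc
The TGACNNNGC core had 1 match each in the Abcb1a and Abcc4 windows, on the minus strand, with first bases at 26 in Abcb1a and -25 in Abcc4 relative to the gene start, and not in the Abcb1b and Abcb4 windows. No matches overlapped, and in Abcc4 this match lies directly beside a GGGCGG match. The RefSeq table lists a further Abcc4 start, whose window held 1 TGACNNNGC match and is not shown. GC boxes numbered 1 in Abcb1b, 1 in Abcb4 and 3 in Abcc4. Such short motifs are common: of 32851 promoters of this length, 12.4% held TGACNNNGC, 32.4% GCGTG, 35.7% GGGCGG and 37.4% CCAAT, and of 45 promoters of 38 ABC members, 7, 16, 21 and 16 did. A match describes letters only and is not evidence of binding.

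In kidney at the low dose, 0 of 37 measured members were past the size rule, against 0.49% of all genes (0.216% higher and 0.274% lower). The median member difference was -0.00 and none lay more than 0.5 from control. Abcc9 had the largest positive difference (0.41), reading -1.55, -1.14 and -0.94 from control to high dose, so the low-dose array already lay above control. Abcc3 (0.37) and the sterol exporter Abcg1 (0.33) came next, and Abca8b (-0.22) and Abca7 (-0.15) were among the lowest. The 5 members called at the high dose differed by 0.10 to 0.37 here. Abcb11, the bile salt export pump, was at least 1.90-fold higher at the low dose, but the kidney high-dose array was again not well above background for it. Levels followed the order control, low, high in 11 of 37 members (29.7%, against 19.4% of all genes measured on the 3 arrays) and the reverse order in 11 (29.7%, against 27.3%). Both kidney dose comparisons share the control array.

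Markers of other cells and states also differed on the high-dose kidney array, and their part in the ABC differences was not tested. The injury markers Havcr1 (1.78) and Lcn2 (1.62) were higher, 2 of 8 measured on that list. Of 10 measured hepatocyte markers, 5 were higher (Serpina1a 3.28, Serpina1b 2.84, Ahsg 1.38, Alb 1.22 and Apoc3 1.17), and the median difference was 0.82. On the control, low-dose and high-dose array 10, 9 and 11 of the 12 markers of the list were well above background. The median level of the whole list was -0.85, -0.90 and 0.34. Its log2 sum, which weighs the brightest genes most, was 7.90, 7.73 and 7.62. Among ABC genes that are high in liver, Abcb11, Abcg5 and Abca6 were not well above background on the high-dose kidney array, Abcg8 was at -1.11, -1.11 and -1.13, and Abcc6 at -0.02, -0.03 and 0.06. Others that are highest in liver went either way at the high dose, among them Abca8b (0.53), Abcc2 (0.29), Abca8a (0.27), Abca1 (-0.04) and Abcd3 (-0.13). The called Abcb4 and Abcc3 are also highest in liver. The spermatid list, with 5, 4 and 6 of 8 markers well above background, had log2 sums of 1.26, 0.06 and 4.26, with Prm1 and Ldhc higher by 3.42 and 3.56 at the high dose. The testis members Abca14, Abca15 and Abca16 stayed below that background limit, but they did so on every array of every tissue and so are not informative here. Abca17, of the same group, was above it in kidney on the control array only. Proximal tubule markers were 0 of 10 past the rule (log2 sums of 10.81, 10.77 and 10.65). The 8 macrophage markers had a median difference of 0.51 with 0 past the rule (log2 sums of 4.26, 4.26 and 4.35). Of 4 cholangiocyte markers, 1 was past the rule, and their median difference was 0.52.

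Urothelium and adrenal markers separated the control kidney array from both exposed ones. The urothelium list had log2 sums of -0.48, 1.24 and 1.25 and 4 of 4 and 3 of 4 measured markers higher at the low and the high dose. The adrenal list had sums of 2.43, 0.31 and 0.30. The part of these cells in the ABC differences was not tested.

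Genes that act with the family were examined as lists. Of 24 measured regulators and partners of ABC genes in kidney at the high dose, 0 were higher and 1 was lower, the fatty acid receptor Ppard (2.24 to 1.19, a difference of -1.06). The oxidative stress factor Nfe2l2 (NRF2) differed by 0.24 and the xenobiotic receptor Nr1i2 (PXR) by 0.05. Among 10 measured NRF2 target enzymes, 3 were higher: the quinone reductase Nqo1 (-0.72 to 0.30, a difference of 1.02), the heme oxygenase Hmox1 (2.33 to 3.51, 1.18) and the glutathione transferase Gstm1 (5.58 to 7.16, 1.58). Among 8 measured targets of the receptors PXR and CAR, 2 were higher, Gsta2 (2.64) and the retinal dehydrogenase Aldh1a1 (1.71). Of all genes 1.12% were higher in this comparison. The 3 ABC proteins with other names, the chloride channel Cftr and the peptide transporters Tap1 and Tap2, differed by 0.03, -0.01 and 0.33, and 0 of 3 were past the rule in any of the 5 comparisons.

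In liver at the high dose, 0 of 39 measured members were past the size rule, against 0.792% of all genes (0.336% higher and 0.456% lower), and 36 lay within 0.5 of control. The largest difference was that of Abcb1a, from -2.27 to -1.55 (0.71, array error 0.23, and 0.46 with another background correction). Abcc3, the basolateral anion exporter of hepatocytes, went from 4.37 to 4.96 (0.59), and the peroxisomal Abcd2 from -3.14 to -2.60 (0.55, array error 0.33, and 0.18 with that correction). The second probe of Abcc3 gave 0.81. Abcb1b was well above background only at the high dose, at least 1.30-fold higher. The probes of Abca4 disagreed: the reported one was well above background only at the high dose and another only in control, so no direction is given. Abca8b differed by 0.12 by its reported probe and by -0.98 by another. The remaining kidney genes differed by 0.24 (Abcc4) and 0.13 (Abcb4). Lowest were the bile salt pump Abcb11, from 6.79 to 6.52 (-0.27), the peroxisomal Abcd3, from 6.31 to 6.04 (-0.27), and Abcg2, from 4.69 to 4.47 (-0.22). On this array 1 of 10 measured NRF2 targets was higher, Nqo1 (1.39).

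In brain, 0 of 37 measured members were past the rule at 100 mg/L, against 0.75% of all genes (0.444% higher and 0.306% lower). At 1000 mg/L it was again 0 of 37, against 0.45% (0.199% and 0.252%), and all 37 lay within 0.5 of control in both. Abca9, a lipid transporter of the Abca6-like cluster, was at -3.56, -3.14 and -3.09 on the control, low-dose and high-dose array (differences 0.43 and 0.48). Its exposed arrays lay together above the control array, which both comparisons share. Other leading differences were Abcb6 (0.25) and Abcc10 (0.25), Abcc9 (-0.26) and Abca4 (-0.19) at the low dose, and Abcc4 (0.12), Abcc5 (0.12), Abca4 (-0.40) and Abca8b (-0.25) at the high dose. The choroid plexus list had log2 sums of 6.60, 6.32 and 5.11 on the 3 brain arrays, and the pituitary list had 1.29, -0.13 and -0.23 (5, 2 and 3 of 6 markers well above background), which sets the control array apart from both exposed ones, as in Abca9. Of the measured pituitary markers 1 was lower at the low dose (Pomc, -1.55) and 2 at the high dose (Prl -3.54, Pomc -1.65). The part of either list was not tested. The 5 kidney genes lay between -0.18 and 0.17 in both brain comparisons by their reported probes. A dimmer probe of Abcb4, however, differed by -0.78 at the low dose. At the high dose that probe was below the background limit, at least 2.46-fold lower than control. A further dim probe of Abcb4 differed by 0.27 at the low and -0.16 at the high dose. Abcc12 was at least 4.68-fold higher on the low-dose array, the only array of the 8 on which it was well above background. The other probe of Abcg3, well above background on the control array only, was at least 3.36-fold lower at the low dose. At the high dose it was at least 3.62-fold lower.

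A high-dose effect shared by the tissues was tested with limma across 17353 genes, with tissue and dose as additive terms and 3 residual degrees of freedom. At an adjusted p under 0.05, 0 of 33 members and 0 genes (0%) were called. At an unadjusted p under 0.05 there were 4 members, Abcc5 (0.19), Abcg2 (-0.16), Abcb1a (0.60) and Abcc3 (0.69), and 1173 genes (6.76%), and the lowest adjusted p was 0.69 among members and 0.298 among genes in limma. Of 33 members measured in all 3 high-dose comparisons, 5 were above control in each (15.2%, against 11.1% of genes), among them Abcc4, Abcc5, Abcc6 and Abcc9, and 6 were below control in each (18.2%, against 16.7%), among them Abca2, Abca3, Abca5, Abce1 and Abcg2. Whether the kidney differences exceed those of brain or liver was not tested, since a tissue-by-dose term leaves no residual degrees of freedom.

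The tissues were compared in the same limma model, in which arrays of different doses stand in for replicates, and a member was called at an adjusted p under 0.05 with a difference of at least 1. Of 35 members tested between brain and kidney, 8 were higher and 13 lower in brain (60.0% called, against 39.9% of all genes, 16.3% higher and 23.6% lower). Of 34 tested between kidney and liver, 6 were higher and 14 lower in kidney (58.8%, against 26.7%, 11.4% and 15.3%). Of 34 tested between brain and liver, 9 were higher and 16 lower in brain (73.5%, against 49.4%, 15.6% and 33.8%). The highest adjusted p of a called member in limma was 0.0127. Among the 43 members well above background in the tissue with their highest mean, that tissue was liver for 23, kidney for 10 and brain for 10, and by a lead of at least 2 for 11, 1 and 3. This ranking was not made over all genes, so it does not set the family apart. More genes of the whole array were called lower than higher in brain minus liver (33.8% against 15.6%) and in kidney minus liver (15.3% against 11.4%). Scaling to the median instead moved the median of all genes by -0.27 (brain minus kidney) and -0.31 (brain minus liver), and the brain and kidney split of members became 6 higher and 14 lower. Of all genes called between brain and kidney, 40.8% were higher in brain, and 29.7% after median scaling.

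**Figure D3:**
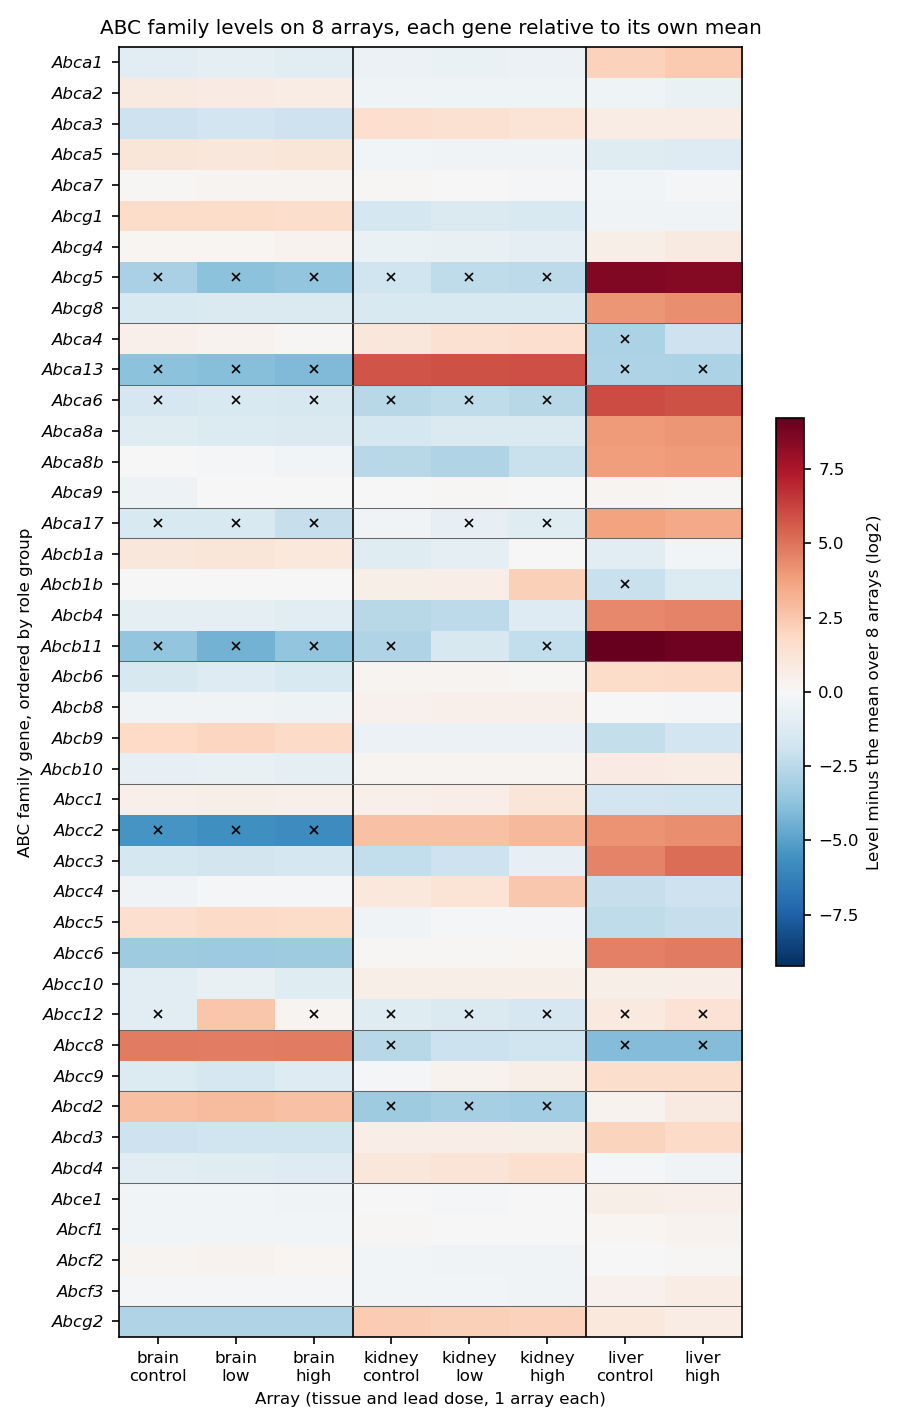
Level of 42 ABC members detected on at least 1 array (rows, ordered by role) on the 8 arrays (columns), as log2 minus the gene's own mean, with a cross where the probe was not well above background. Columns of the same tissue look alike and columns of different tissues do not, with Abcb11, Abcg5 and Abca6 in deep red on the liver arrays and Abca13 on the kidney arrays.

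The bile salt pump and both canalicular sterol transporters were highest in liver. The other sterol and phospholipid exporters were divided. Abcg1, Abca2 and Abca5 were highest in brain and Abca1 in liver. By their reported probes, Abca3 was highest in kidney and Abcg4 in liver. The other Abca3 probe was higher in liver (mean -2.78) than in kidney (-3.12). Abca7 led in brain by only 0.22 over kidney and was called in no contrast. Abcb11 was at 6.79 and 6.52 on the liver arrays, and not well above background on any brain array, which puts brain at least 3424-fold lower. Abcg5, one partner of the sterol pump of the canaliculus, was at 5.27 and 5.25 in liver, with brain at least 1302-fold and kidney at least 1016-fold lower. Its partner and neighbour Abcg8 was at 4.34 and 4.58 in liver against -1.11, -1.11 and -1.13 in kidney (kidney minus liver -5.59, SE 0.09), and brain minus liver was -5.53 (SE 0.09). Both partners were thus highest in liver, and only Abcg8 was well above background elsewhere. The cholesterol exporter Abca1 also led in liver (kidney minus liver -2.86, SE 0.12).

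Abcb4 was at 5.36 and 5.48 in liver, and kidney was 6.49 lower on the log2 scale (kidney minus liver -6.49, SE 0.34, adjusted p = 4.2e-06 in limma). For Abcc3 the same contrast was -6.43 (SE 0.31), and brain minus liver -6.43. On the high-dose arrays kidney stayed below liver in both, at -0.28 against 5.48 for Abcb4 and -0.94 against 4.96 for Abcc3. Abcc6, which drives ATP release from hepatocytes, had the largest difference among members measured on both sides, -8.01 in brain minus liver (SE 0.08, adjusted p = 2.19e-09 in limma), with levels of -3.40, -3.46 and -3.36 in brain, then -0.02, -0.03 and 0.06 for the kidney arrays, and 4.55 and 4.70 for liver. Abcc2 was at 2.57 and 2.74 in liver and between 1.08 and 1.43 in kidney, and brain was at least 214-fold below liver and at least 79.4-fold below kidney.

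In the Abca6-like cluster, whose genes are consecutive on chromosome 11 together with Abca5, 3 of 4 members were far higher in liver than in kidney. Abca6 was at least 83.4-fold lower in kidney and at least 107-fold lower in brain. Abca8b (kidney minus liver -6.27, SE 0.20) and Abca8a (-5.47, SE 0.14) were measured in every tissue, and Abca8b was also higher in brain than in kidney (2.33, SE 0.17). Abca9, from the middle of the same cluster, ranged over only 0.38 between tissue means, the smallest range of the 33 members measured on all arrays. Abca5 was highest in brain (brain minus liver 2.27, SE 0.10). Abca17 also led in liver, with brain at least 32.0-fold lower.

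Kidney led for the apical drug pump Abcg2, with levels of 6.12, 5.98 and 5.87 against 0.96, 0.97 and 0.94 in brain and 4.69 and 4.47 in liver. Brain minus kidney was -5.03 (SE 0.05) and kidney minus liver 1.41 (SE 0.06). Abca13 was at 2.71, 2.79 and 2.90 in kidney, at least 237-fold above brain and at least 111-fold above liver, where it was not well above background on any array. Abcc4 was higher in kidney than in brain (brain minus kidney -1.81, SE 0.28) and than in liver (3.67, SE 0.33). Abcd4 was higher in kidney than in liver too (1.46, SE 0.14). Abca3 was lower in brain than in kidney (-3.27, SE 0.06) but was not called between kidney and liver (0.70, SE 0.07). Its other probe differed by -0.44 in brain minus kidney. In kidney minus liver that probe gave -0.34, the opposite sign to the reported one. The reported probe of Abcg4, a sterol exporter of neurons, gave 0.92 in brain minus kidney (SE 0.09) and the other 6.83. Between brain and liver its probes disagreed. The reported one read 0.89, 0.85 and 0.98 in brain and 1.24 and 1.49 in liver. The other read 3.14, 3.03 and 2.91 in brain and was not well above background on any liver array. Further probes well above background on all arrays of both tissues gave 52 differences of tissue means. Of these, 4 had the opposite sign to the reported probe, in Abca3, Abcc1 and Abcc5.

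Brain led for Abcc8, at 2.81, 2.70 and 2.80, at least 108-fold above liver. The cyclic nucleotide and anion exporter Abcc5 was at 2.62, 2.78 and 2.73 in brain, at 0.73, 0.85 and 0.94 for kidney and at -1.29 and -1.05 in liver (brain minus liver 3.86, SE 0.07). The lysosomal peptide transporter Abcb9 was at 3.98, 4.16 and 3.95 in brain and at 0.00 and 0.43 in liver (3.78, SE 0.12). The 3 tissues did not overlap for either gene by these probes. A further probe of Abcc5, well above background on all arrays, differed by -0.15 between the means of brain and liver, against 3.61 for another. Abcg1, which exports sterols to lipoproteins, was higher in brain than in kidney (3.12, SE 0.08) and liver (1.95, SE 0.09). Abcd2 was at least 16.8-fold higher in brain than in kidney. Abcb1a, the P-glycoprotein of brain capillaries, was higher in brain than in kidney (1.70, SE 0.21) and liver (1.69, SE 0.25), whereas Abcb1b was lower in brain than in kidney (-1.16, SE 0.32). That last call rests on the high-dose arrays: the difference was -0.72 without the kidney one and -0.71 without the brain one, short of the limit. Abcb4 was higher in brain than in kidney (1.15, SE 0.29), but fell short without either control array or either low-dose array (0.85 to 0.98). By its reported probe, Abcc1 was not called between brain and kidney (-0.19, SE 0.16) and was lower in liver (kidney minus liver 2.56, SE 0.19), but brain minus liver was 2.37 for the reported probe and 0.61 as a mean of both probes. The other Abcc1 probe alone gave differences of tissue means of -1.81 in brain minus kidney and 0.68 in kidney minus liver. In brain minus liver it gave -1.14, the opposite sign.

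The peroxisomal Abcd3 was ordered brain, kidney, liver, at 2.40 in brain, 4.83 in kidney and 6.17 in liver as tissue means (brain minus liver -3.78, SE 0.07). The mitochondrial transporters Abcb6 (-3.13) and Abcb10 (-1.50) were lower in brain than in liver, while Abcb8 (-0.34) was not called. Not one of Abce1, which recycles ribosomes, and the translation factors Abcf1, Abcf2 and Abcf3 was called in any contrast, with tissue ranges of 0.51 to 0.83. Over the 33 members on all arrays, 26 ranged over at least 1 between tissue means and 19 over at least 2. The 7 under 1 were Abca7, Abca9, Abcb8 and these 4. Such ranges were not computed over all genes.

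**Figure D4:**
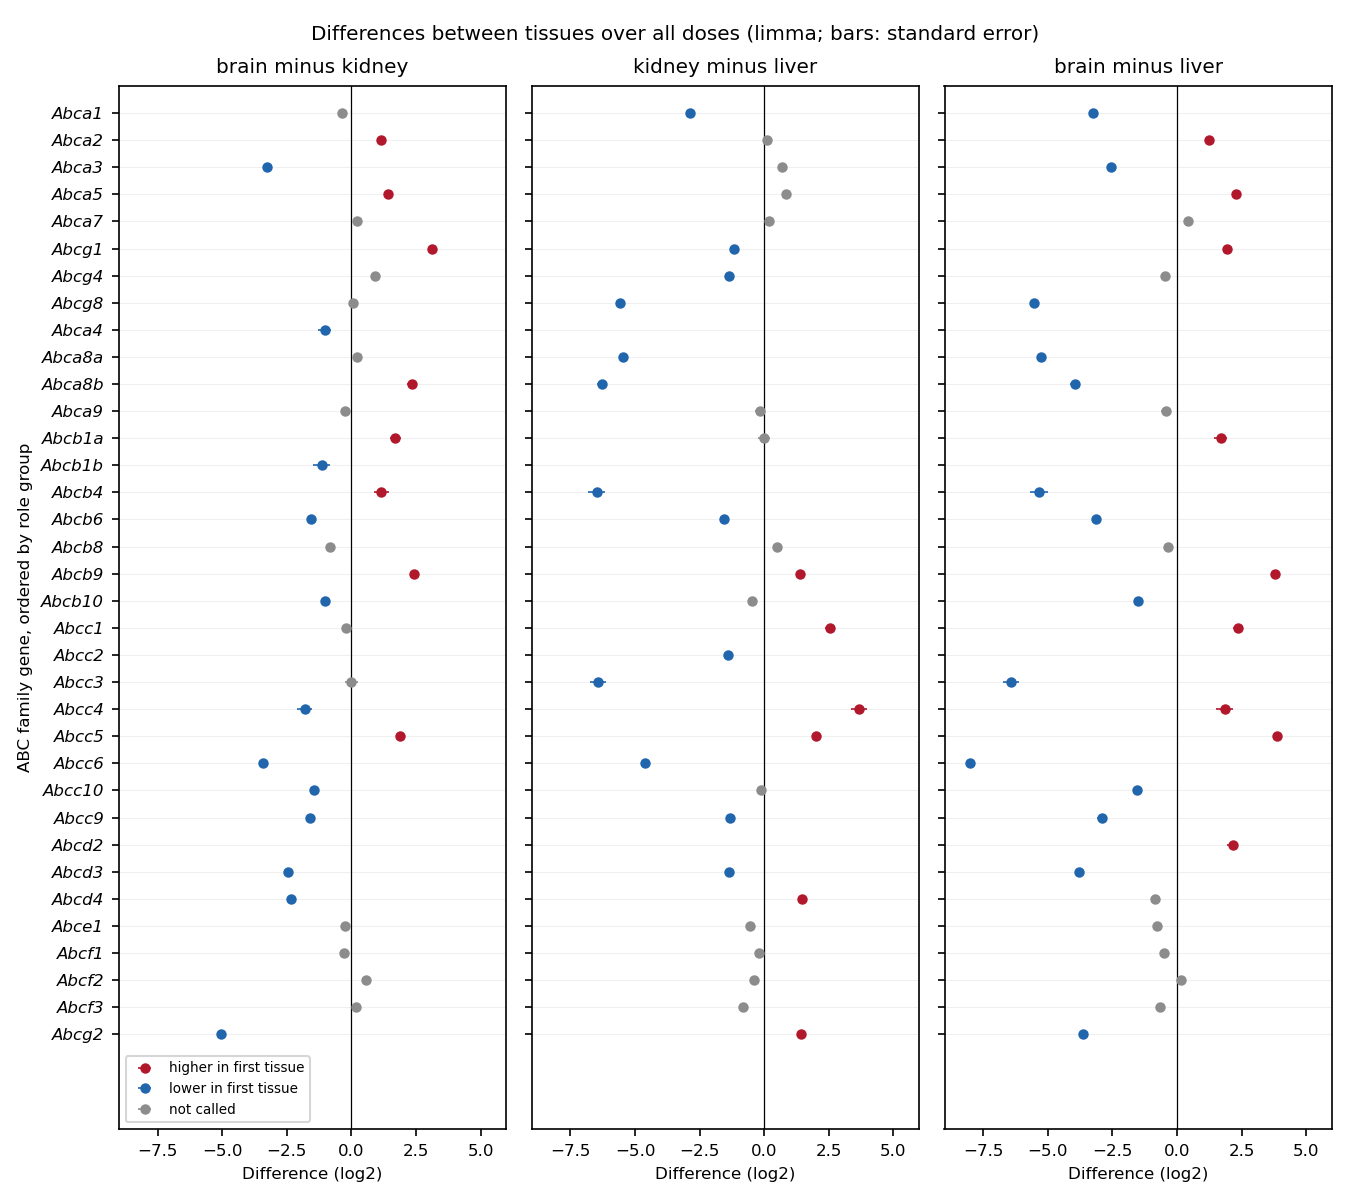
Difference between tissues (log2, x axis) for the tested ABC members shown (y axis, ordered by role), fitted with limma over all doses, with bars for the standard error, red and blue for calls and grey for members not called. Blue points reach -8.01 for Abcc6 in brain minus liver, and the translation factors near the bottom are grey in every panel.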

How the data were processed

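RNA from 8 samples was hybridised to 1-colour arrays, grouped by the labels with 1 array per group. The deposited scanner files hold intensity on a linear scale, background-subtracted and not scaled between arrays, and the submitters' processing notes name Agilent Feature Extraction 12.0.3.1. Its 0 or 1 flags and relative spot errors were used. The deposited value table also holds intensity and equals each array's processed signal over its 75th percentile over all spots. From control to high dose its medians per column were 0.112, 0.113 and 0.114 (brain), 0.0940, 0.0905 and 0.0936 (kidney) and 0.0915 and 0.0918 (liver), and scale, centring and direction are thereby known.

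Control and outlier-flagged spots were left out, log2 processed signals of spots of a probe were averaged, and the 75th percentile over non-control spots was subtracted. Gene names are those of the files and can be old. The array error adds the relative errors of both spots in quadrature and is given on the log2 scale. A bound divides the bright value by the dim probe's value or, if higher, by the dim array's lowest signal that passed the background limit. Tissue and shared dose effects were fitted with limma 3.58.1 (R 4.3.3; tissue and dose additive, empirical Bayes with an intensity trend, Benjamini-Hochberg adjustment), whose p-values measure the spread between arrays of different doses. Python 3.11.15, numpy 2.4.6, pandas 2.3.3 and matplotlib 3.10.9 did the rest, and the methods were tested on simulated data.

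The members and lists were chosen with earlier results of these data known. Named are members past the size rule, the 3 leading differences each way per dose comparison, and the 4 leading differences and 2 leading bounds each way per tissue contrast. From the lists, up to 4 genes past the size rule are named, except that all hepatocyte markers past it in kidney at the high dose are. Some members are counted in the totals but not reported here by name or drawn. Values of further probes were added after the data were seen. Members outside these rules were named after their values were seen. Alternatives covered scaling, background correction, filter, probe rule, source of values, model and left-out arrays. The number of arrays limits the precision.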

Additional observations from a re-analysis of the deposited data

How the results depend on the processing

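Of 1574 recomputed values of 120 results, 1541 were labelled unchanged, 8 moved and 0 reversed, and 25 values of called members fell short of a threshold. Differences and medians were labelled unchanged if they stayed on their side of the threshold or moved by less than their error. The 188 unchanged counts of members only had to stay within a fixed ratio of the main count. A kidney high-dose count of 4 instead of 5 was thus labelled unchanged. Members whose tissue calls fell short under some setting included Abca2, Abca4, Abcb10, Abcb1b, Abcb4, Abcc1, Abcc4 and Abcd3. Without the filter on dim probes, 1 member was higher in brain at the low dose, 25 were lower in brain than in liver and 10 were higher in kidney than in liver. That setting brings probes near background into the counts. The kidney high-dose count was 4 or 5 under every setting run, 4 with normexp background correction and 4 with the low-dose array as baseline (an alternative chosen after seeing the data), each time without Abcb1a (0.81 and 0.83). Abcc1 in brain minus liver was 0.61 as a mean of probes. The cause was not tested. Leaving out each array in turn gave 7 to 8 members higher and 10 to 13 lower in brain minus kidney, 9 to 9 and 16 to 17 in brain minus liver, 6 to 6 and 14 to 14 in kidney minus liver, and 0 to 0 members with a shared high-dose effect (1 gene in all without the brain high-dose array). Where an array was left out, the lone array of a group is assumed to vary like the others. Leaving out replicates within a dose comparison was not possible with 1 array per group, and a slide block was not run because all arrays share 1 slide. No paired analysis was possible because every group has the single replicate number 1, although the tissue model matches arrays of different tissues by dose. Probes near background limit what can be said of Abcb11, Abcg5, Abca6, Abca13 and Abcc2 outside the tissues that express them.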
